A study of Danio rerio with 24 samples.

Results

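Carrying a guide RNA was compared with carrying none: 12 libraries of 3TG zebrafish embryos were set against 12 libraries of 2TG embryos, whatever gene the guide targets. A 3TG embryo carries the components of CRISPR-Q together with a guide, and a 2TG embryo of the same line carries the components alone. The members were chosen by genotype and line from the labels, and all 24 of the 24 libraries of the series entered. There were 4 lines, each with 3 libraries of either genotype. The guides of the smn1 line and of the tardbp line, whose guide array targets tardbp together with its paralog tardbpl, direct RNA knockdown (CRISPR-QKD). Those of the lin28a and sox9b lines direct transcriptional activation (CRISPR-Qa). All embryos, 3TG and 2TG alike, were raised at 28.5 °C under 14 h of light and 10 h of dark, were heated for 1 h at 2 and again at 3 days post fertilization, and gave RNA as whole embryos at 4 days. The heat switches on QFvpr, an activator placed behind the promoter of the heat shock gene hsp70l, so the 2TG embryos carried the driver and received the heat too. The labels name 2 RNA extraction reagents without saying which library had which, and the number of embryos in each library is not given in the sources used here. Nothing in the labels says that replicates came from separate clutches, so p-values measure the spread between these libraries, which may be technical. The guide's action on its target, its action elsewhere and the presence of the guide transgene cannot be told apart within a line.

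QF is a transcription factor of the Q system that switches on genes placed behind its binding sites, and a guide RNA then directs a CRISPR protein to the matching gene or transcript. smn1 encodes the survival motor neuron protein, which loads Sm proteins onto spliceosomal RNAs, and tardbp and tardbpl encode TDP-43 proteins, which bind RNA and regulate splicing. lin28a encodes an RNA-binding protein that blocks maturation of let-7 microRNAs, and sox9b a regulator of chondrocyte and crest development.

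Values are TPM, the authors' deposited unit, a transcript abundance scaled for gene length and library total. Read depth is unknown from TPM, so no counting interval is given. Each library was rescaled to the same total without zgc:158463, FO704772.3 and AL935186.10, since these 3 genes held 44.0% of the deposited TPM sum in tardbp 3TG replicate 3 and between 0.110% and 1.31% in the other 23 libraries. Genes at 1 TPM or more in at least 12 libraries were tested, 19427 of the 25432 in the tables. Differences are on the log2(TPM + 1) scale, 3TG minus 2TG, with line as a block, so that each line counts equally. The 12 lists of tissue markers of the whole embryo were detected in every library, with summed levels between 217 TPM for exocrine pancreas and 128030 TPM for skeletal muscle. The mitochondrially encoded share ran between 8.0% and 10.6% in 3TG libraries and between 7.58% and 12.2% in 2TG libraries. In such bulk tissue, fewer cells of a type and less RNA per cell cannot be told apart.

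The targeted genes were read first. smn1 (ENSDARG00000018494) stood at 13.2, 17.6 and 16.1 TPM in 3TG embryos of its own line, against 28.6, 25 and 26.8 TPM in 2TG embryos, with means of 15.6 ± 2.22 TPM and 26.8 ± 1.77 TPM (SD, n = 3 each). The groups did not overlap in that line and overlapped in the other 3, where the difference ran between −0.09 and 0.27. Pooled over the 4 lines, smn1 differed by −0.13 (SE 0.111).

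tardbp (ENSDARG00000040031) stood at 75.7, 81.2 and 111 TPM in 3TG embryos of its line, against 148, 110 and 120 TPM in 2TG embryos, with means of 89.3 ± 19 TPM and 126 ± 19.5 TPM (SD, n = 3 each). The highest 3TG library lay just above the lowest 2TG library. tardbpl (ENSDARG00000004452) averaged 139 ± 31.9 TPM in 3TG embryos and 201 ± 17.8 TPM in 2TG embryos of that line, with no overlap. The other 3 lines averaged −0.09 for tardbp and −0.04 for tardbpl, and the pooled differences were −0.19 (SE 0.0985) and −0.17 (SE 0.0921).

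lin28a (ENSDARG00000016999) stood at 2.72, 8.54 and 3.2 TPM in 3TG embryos of its line, against 0.314, 1.24 and 0.877 TPM in 2TG embryos. Every 3TG library was above every 2TG library, but the 2TG mean of 0.811 ± 0.468 TPM was itself low beside the 2TG means of the other lines, 5.57 ± 3.0 TPM in smn1, 6.42 ± 1.71 TPM in tardbp and 6.74 ± 4.9 TPM in sox9b (SD, n = 3 each). In those lines lin28a lay lower in 3TG, with differences between −1.16 and −0.08, and the pooled difference was 0.03 (SE 0.313). Its sign turned with TPM as deposited (−0.041).

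sox9b (ENSDARG00000043923) stood at 40.3, 35.2 and 31.9 TPM in 3TG embryos of its line, against 17.3, 18.9 and 18.4 TPM in 2TG embryos. These 3TG values were the highest of the 24 libraries. In the tardbp line the order was the opposite and also without overlap, with 8.01 ± 0.725 TPM in 3TG embryos and 15 ± 2.47 TPM in 2TG embryos (SD, n = 3 each). The pooled difference was 0.26 (SE 0.195).

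**Figure D1:**
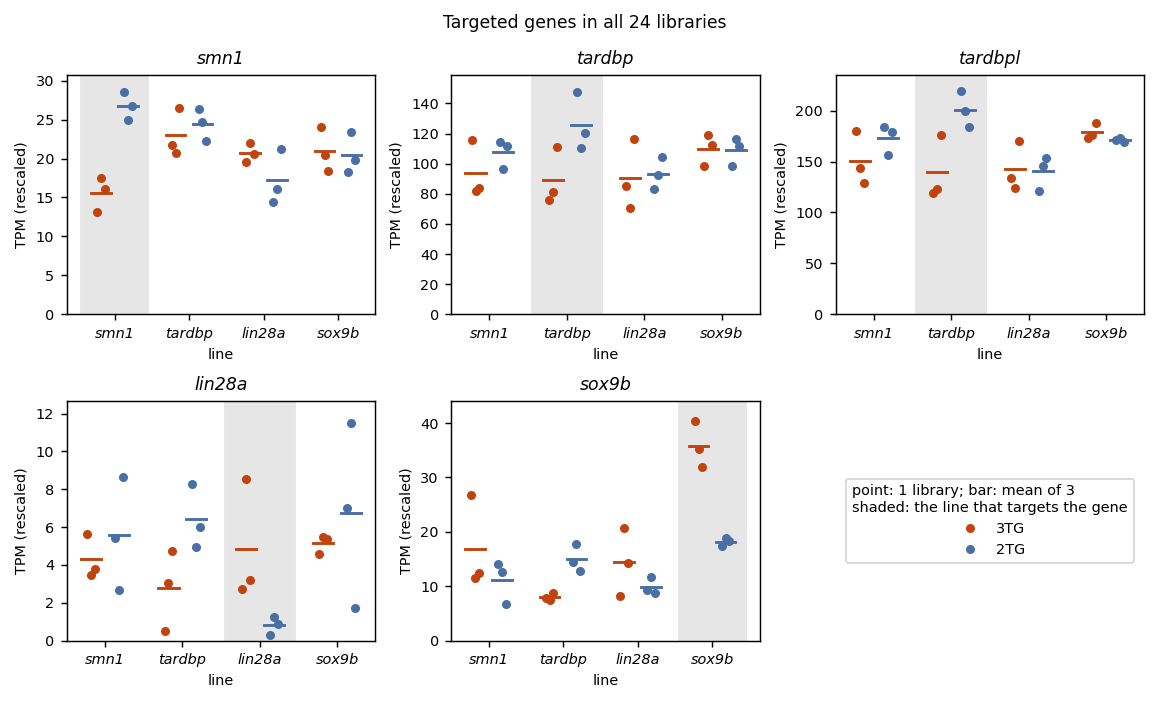
Rescaled TPM of the 5 targeted genes in the 24 libraries, 3TG left of 2TG in each line, with a bar at the mean of 3 libraries and the targeting line shaded. sox9b lies between 31.9 and 40.3 TPM in 3TG libraries of its own line, above the other libraries, and the 2TG mean of lin28a in its own line is 0.811 TPM.

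Each target's difference in its own line was then set against the mean of the other 3 lines. It was −0.82 (SE 0.193) for smn1, −0.42 (SE 0.22) for tardbp and −0.50 (SE 0.19) for tardbpl. It was 2.07 (SE 0.587) for lin28a and 0.90 (SE 0.348) for sox9b, so that the 3 knockdown targets were negative and the 2 activation targets positive. No target passed an adjusted p of 0.05 in limma, with 0.696 for smn1, 0.558 for tardbp, 0.548 for tardbpl, 0.564 for lin28a and 0.978 for sox9b. By unadjusted p, smn1 ranked 9 of the 19427 genes in its contrast, lin28a 23, sox9b 123, tardbpl 512 and tardbp 2552. The share of all genes at an unadjusted p under 0.05 in these contrasts was 6.62% for smn1, 9.03% for tardbp, 8.84% for lin28a and 3.07% for sox9b, and 0 genes passed the adjusted threshold in each. With library weights sox9b reached 1.18 at an adjusted p of 0.00383. There sox9b 2TG replicate 1 took a weight of 59.0, against 0.724 and 0.396 for the other sox9b 2TG libraries, so the 2TG level rested mostly on 1 library. The paralog lin28b had a pooled difference of 0.43 (SE 0.352), which was 0.13 without sox9b 2TG replicate 3, and sox9a one of 0.10 (SE 0.181), neither past the threshold.

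No gene passed the threshold in the pooled comparison (limma, 0 of 19427, or 0%, at an adjusted p under 0.05), and the smallest adjusted p was 0.479. An exact permutation test of every gene, with genotypes exchanged within lines, called 0 genes, with a smallest adjusted p of 0.243. The smallest p this test can give is 1.25e-05, so a gene alone at that value could not pass adjustment over 19427 genes. Its 0 calls therefore add little to those of limma. At an unadjusted p under 0.05 limma listed 2014 genes (10.4%), 425 (2.19%) higher and 1589 (8.18%) lower in 3TG, and the permutation test listed 2051. The share on the higher side depended on the scaling. With TPM as deposited, where the 3 genes left out here hold 44.0% of tardbp 3TG replicate 3, it was 4.05%. It was 21.1% here, 38.8% with median centring and 34.8% with quantile normalization. It also depended on the libraries, at 43.6% without the tardbp line, 34.8% without lin28a and 75% within the smn1 and sox9b libraries whose TPM are written with 6 decimals, among which smn1 3TG has 1 library. The count was 620 without the smn1 line and 709 without tardbp, against 3128 without lin28a and 2738 without sox9b. It was 1242 without tardbp 3TG replicate 2, 1311 without smn1 3TG replicate 3, 1324 without tardbp 2TG replicate 1 and 974 with library weights.

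**Figure D2:**
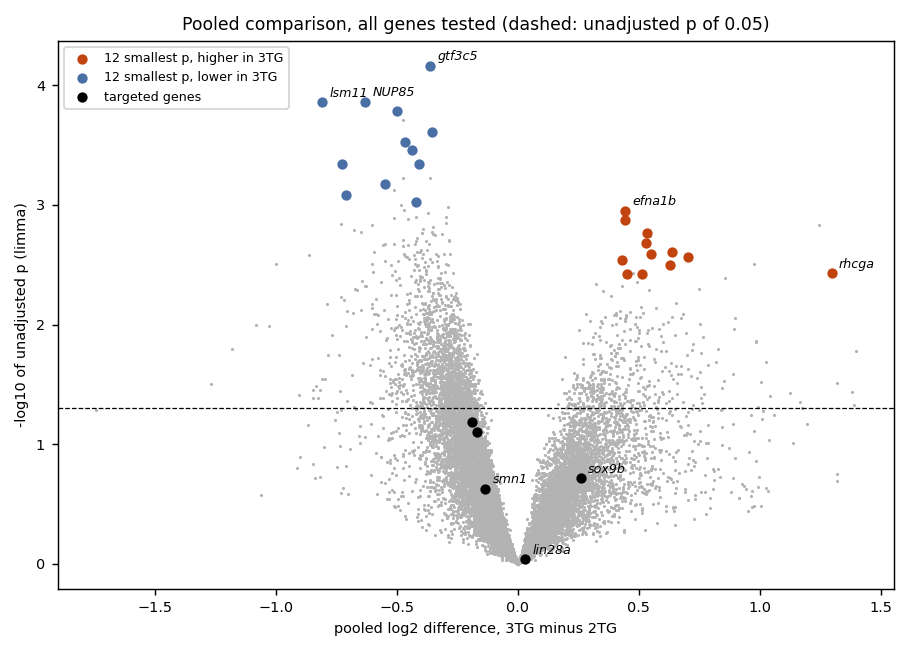
Pooled log2 difference, 3TG minus 2TG, against −log10 of the unadjusted limma p for the 19427 genes tested, with the 12 named genes of smallest p in each direction coloured and the targeted genes in black. Above the dashed line, at an unadjusted p of 0.05, 425 genes lie on the higher side and 1589 on the lower side.

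The precision of the pooled estimates can be read from their intervals. The median standard error was 0.14, and for 18645 genes (96.0%) the 95% interval lay within −1 and 1. For 12592 genes (64.8%) it lay within −0.5 and 0.5. A pooled difference of 1 or more in size was seen in 29 genes (0.149%), against 731 within the smn1 line, 931 within tardbp, 368 within lin28a and 33 within sox9b. The line values rest on 6 libraries each and the pooled values on 24, so these counts are not on an equal footing. Genotype took a mean of 5.74% and a median of 3.34% of a gene's sum of squares, where it holds 4.35% of the degrees of freedom. The line took a median of 17.4% (mean 20.47%) and the line-by-genotype terms 12.2% (mean 13.61%), each with 13.04% of the degrees of freedom. The replicates took a median of 61.0% (mean 60.19%), with 69.57% of the degrees of freedom. Replicates lay closest together in the sox9b line, with a median within-group SD of 0.237 on the log2 scale, against 0.315 in smn1, 0.342 in tardbp and 0.327 in lin28a.

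Directions were then compared over lines. A difference of the same sign in all 4 lines was found for 2547 genes (13.1%), 1013 of them (5.21%) higher and 1534 (7.9%) lower in 3TG. No gene (0%) had 3TG and 2TG libraries that did not overlap in each of the 4 lines in 1 direction, and none separated all 24 libraries. In at least 3 lines, 3 genes (0.0154%) did so on the higher side and 25 (0.129%) on the lower side. Within a single line, groups without overlap were seen for 19.5% of genes in smn1 and 18.7% in tardbp, the knockdown lines. The shares were 6.58% in lin28a and 4.27% in sox9b. Groups of 3 libraries can lie apart without any effect of the guide, and the signs of 4 lines can agree without it. The shares to be expected without such an effect were not computed.

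On the lower side 12 genes of smallest pooled p were named. gtf3c5, a subunit of the factor TFIIIC that RNA polymerase III needs, ran at 7.35 to 11.9 TPM in 3TG libraries (median 9.61), against 11 to 14.2 TPM in 2TG libraries (median 12.4). Its groups did not overlap in the tardbp, lin28a and sox9b lines, and in smn1 one 3TG library, at 11.9 TPM, lay above the lowest 2TG library. The pooled difference was −0.36 (SE 0.0751), with an unadjusted limma p of 6.84e-05. Its exact permutation p was 2.5e-05, where 1.25e-05 is the smallest the test can give. The genes named here and on the higher side were picked by p in these libraries, so their exact p-values are no separate test. Adjusted over all genes, the smallest exact permutation p was 0.243.

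lsm11, an Sm-like protein of the U7 particle that processes histone transcripts, ran at 0.446 to 3.58 TPM in 3TG libraries (median 2.41), against 2.02 to 7.12 TPM in 2TG libraries (median 5.27). It lay lower in 3TG in each line, with −1.14 in lin28a, −0.95 in tardbp, −0.65 in smn1 and −0.49 in sox9b, and its groups overlapped in lin28a alone. The pooled difference was −0.81 (SE 0.178), with an exact permutation p of 0.000313.

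NUP85, a nuclear pore protein, ran at 5.51 to 17 TPM in 3TG libraries (median 10.9), against 12.3 to 22.7 TPM in 2TG libraries (median 16.6). Its groups overlapped in the sox9b line alone, where the difference was −0.10, and the pooled difference was −0.63 (SE 0.138). dnajb14, a co-chaperone of the endoplasmic reticulum, had medians of 6.39 TPM in 3TG libraries and 8.59 TPM in 2TG libraries, with a pooled difference of −0.35 (SE 0.0817) and overlap in the tardbp line alone.

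The other 8 named on the lower side had pooled differences between −0.72 and −0.41. They were golt1ba of Golgi transport (−0.72), ska3 of the kinetochore (−0.71), the RNA methyltransferase gene mettl8 (−0.55), the protein glucosyltransferase gene poglut3 (−0.50), armc10 (−0.47), the endolysosomal channel gene tpcn3 (−0.44), the proteasome adaptor gene ecpas (−0.42) and the Arf GTPase activator gene adap2 (−0.41). In the sox9b line golt1ba was at −0.02 and poglut3 at 0.01, while ecpas was at −0.42, close to its pooled value. Among the further genes without overlap in 3 lines were nelfe of the elongation regulator NELF (−0.20) and the primase gene primpol (−0.51).

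**Figure D3:**
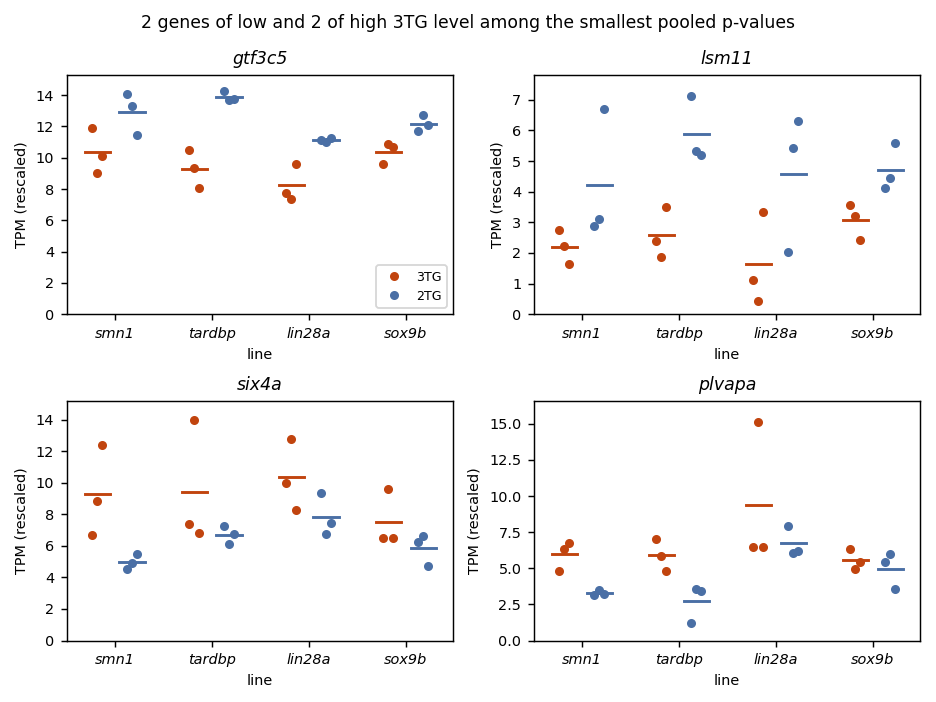
Rescaled TPM of gtf3c5, lsm11, six4a and plvapa in each library, 3TG left of 2TG within a line, with a bar at the mean of 3. The 3TG means of gtf3c5 and lsm11 lie under the 2TG means in each of the 4 lines, and those of six4a and plvapa lie above them.

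On the higher side the 12 named genes had pooled differences between 0.43 and 1.3, and the smallest unadjusted limma p was 0.00112, for efna1b. six4a, a homeobox transcription factor, ran at 6.47 to 14 TPM in 3TG libraries (median 8.56), against 4.5 to 9.32 TPM in 2TG libraries (median 6.43). It lay higher in 3TG in each line, with 0.75 in smn1 and 0.31 in sox9b at the ends, and the groups overlapped in every line but smn1. Its pooled difference was 0.44 (SE 0.122), with an exact permutation p of 0.000687.

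plvapa, which forms the diaphragms of fenestrated endothelium, ran at 4.83 to 15 TPM in 3TG libraries (median 6.32), against 1.19 to 7.96 TPM in 2TG libraries (median 3.55), a pooled difference of 0.53 (SE 0.15). Its groups did not overlap in the smn1 and tardbp lines and overlapped in the lin28a and sox9b lines. The ephrin ligand gene efna1b had medians of 35.3 TPM in 3TG libraries and 23.8 TPM in 2TG libraries, with 0.44 (SE 0.119) pooled but 0.05 in sox9b. rhcga, an ammonia transporter gene of the Rh family, had the largest pooled difference of the 24, 1.3 (SE 0.402). It ran at 2.04 to 103 TPM in 3TG libraries (median 23.7), against 1.16 to 85.3 TPM in 2TG libraries (median 7.82), so the groups overlapped over most of their range, and the lin28a line held the highest library of each genotype.

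Tied to the circadian clock are cipcb, a partner of the protein CLOCK, with 0.70 (SE 0.21), and the deubiquitinase gene usp2a, with 0.43 (SE 0.13). rpe65a, the retinoid isomerase of the pigment epithelium, had 0.64 (SE 0.189) and the lipase gene lipcb 0.55 (SE 0.163). The calpain protease gene CAPN1 (0.53), FAM107A (0.63), the RNA-binding protein gene rbms3 (0.51) and lrrc30a (0.45) completed the set. lipcb lay lower in the tardbp line (−0.23) and FAM107A was at −0.04 in lin28a, and the other 10 lay higher in 3TG in each line.

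**Figure D4:**
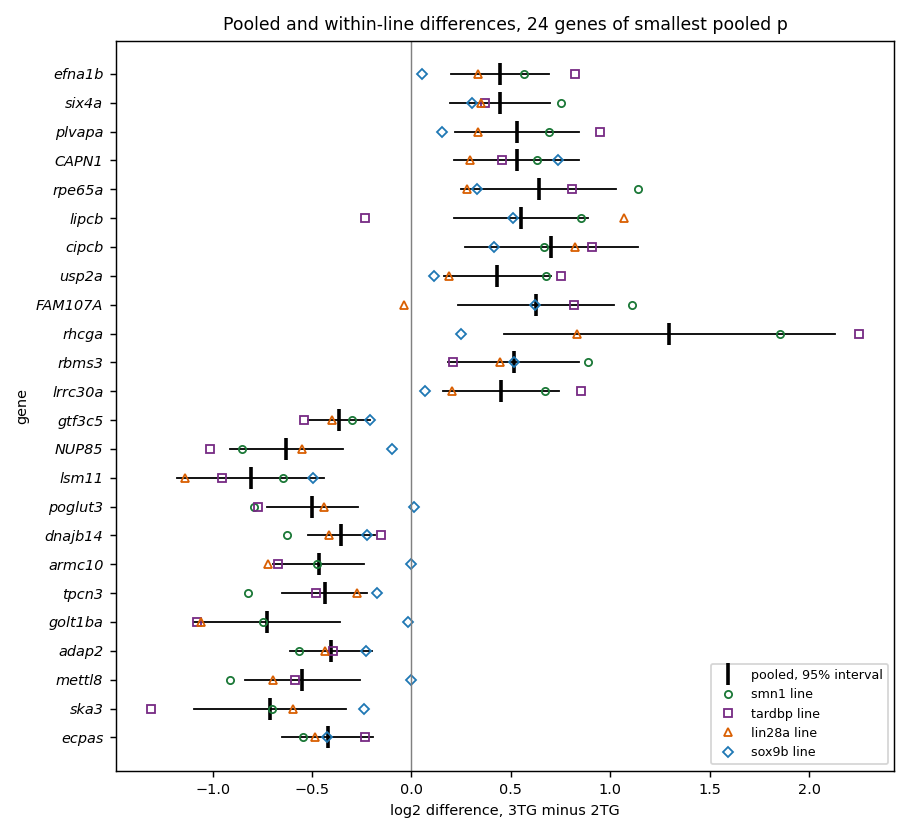
Pooled log2 difference, 3TG minus 2TG, with its 95% interval (black) and the 4 within-line differences for the 24 named genes of smallest pooled p. The sox9b values of golt1ba (−0.02) and efna1b (0.05) lie near 0, and no gene here passed adjustment over all genes.

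Gene lists are described by counts and medians beside those of all genes tested, whose pooled median was −0.03, with 42.8% higher and 57.2% lower by sign. The proteasome, the complex that degrades tagged proteins, had 44 of 45 genes lower by sign, 21 of them at an unadjusted p under 0.05 against 8.18% of all genes in that direction, and a median of −0.22. psmd8 of its regulatory particle ran at 60.4 to 121 TPM in 3TG libraries (median 84), against 71.3 to 140 TPM in 2TG libraries (median 117), a difference of −0.38 (SE 0.117) with groups that did not overlap in the smn1 and tardbp lines. psmd10 (−0.44) and the core gene psmb7 (−0.22) lay the same way. By line the list median was −0.52 in the smn1 line, −0.43 in the tardbp line, 0.08 in the lin28a line and −0.02 in the sox9b line, and the pooled median was −0.12 without the smn1 line.

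The SMN complex and the Sm core it assembles had 22 of 22 tested genes lower by sign, 13 of them at an unadjusted p under 0.05, and a median of −0.28. smn1, a guide target, is among them. snrpf, an Sm protein, ran at 27.8 to 155 TPM in 3TG libraries (median 44.9), against 42.7 to 216 TPM in 2TG libraries (median 110), a difference of −0.73 (SE 0.24), and the Sm genes snrpe and snrpg had −0.52 (SE 0.189) and −0.47 (SE 0.195). The list median was −0.50 in the smn1 line, −0.53 in the tardbp line, −0.09 in the lin28a line and 0.02 in the sox9b line, and the pooled median was −0.16 without the tardbp line.

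Splicing factors had 48 of 55 lower, 16 at an unadjusted p under 0.05, and a median of −0.19, with hnrnpc at −0.37, srsf3b at −0.36 and u2af2a at −0.28. RNA decay genes had 45 of 49 lower, 15 at that level, and a median of −0.17. Among them lsm7 of the decapping machinery had −0.59 (SE 0.175) and the exosome nuclease gene dis3 −0.37 (SE 0.113). Without the tardbp line the medians were −0.09 for splicing factors and −0.09 for RNA decay genes.

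Cell cycle genes had 55 of 56 lower by sign, 13 at an unadjusted p under 0.05, and a median of −0.35. gins1 and gins3, subunits of the replicative helicase, had −0.45 (SE 0.151) and −0.48 (SE 0.173), and pcna, the sliding clamp of DNA replication, −0.31 (SE 0.172). The median was −0.24 in the smn1 line, −0.86 in the tardbp line, −0.21 in the lin28a line and −0.01 in the sox9b line, and −0.15 with the tardbp line left out.

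Nuclear oxidative phosphorylation genes had 75 of 91 lower by sign, 2 of them at an unadjusted p under 0.05, and a median of −0.07. Their line medians lay between −0.09 and −0.05, and 28 of the 91 lay lower in all 4 lines, against 7.9% of all genes. The list median was −0.07 in tardbp, against −0.13 for all genes, and −0.07 against −0.05 in smn1. In lin28a it was −0.09 against −0.05, and in sox9b −0.05 against 0.06. The pooled median of the list was −0.17 with TPM as deposited, against −0.11 for all genes on that scale. Of the 13 mitochondrially encoded genes 10 lay lower, 4 of them at an unadjusted p under 0.05, with a median of −0.17. By line their median was −0.22 in smn1 and −0.30 in lin28a, but 0.0003 in tardbp and −0.02 in sox9b. mt-nd4l, a complex I subunit, ran at 3533 to 6885 TPM in 3TG libraries (median 5054), against 4738 to 7724 TPM in 2TG libraries (median 6432), a difference of −0.30 (SE 0.0902). Globin and erythroid genes had 24 of 26 lower, none at that level in limma, and a median of −0.23, with the globin gene hbae3 at −0.29 (SE 0.227). The globin median was −0.05 without the tardbp line, −0.11 without the smn1 line and −0.40 without lin28a, and between −0.10 and −0.13 without any 1 of smn1 3TG replicate 3, smn1 2TG replicate 3, tardbp 3TG replicate 2 and tardbp 2TG replicate 1. In a mixed list of 21 renin-angiotensin and sterol genes (median −0.05), the sterol synthesis genes mvda and lss had −0.64 (SE 0.203) and −0.50 (SE 0.158), and ace, the angiotensin-converting enzyme gene, had 0.60 (SE 0.226).

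Circadian clock genes had 31 of 40 higher by sign, 9 of them at an unadjusted p under 0.05 against 2.19% of all genes in that direction, and a median of 0.35. nr1d1, a repressor in the clock loop, ran at 2.05 to 77.1 TPM in 3TG libraries (median 12.5), against 1.14 to 34.2 TPM in 2TG libraries (median 4.01), a difference of 1.4 (SE 0.542). bhlhe41, also a clock repressor, had 0.85 (SE 0.269). Both overlapped between the genotypes in each line. The list median was 0.68 in the smn1 line, 0.84 in the tardbp line, 0.02 in the lin28a line and 0.07 in the sox9b line. The hour of collection is not given in the sources used here.

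Immediate early genes, transcription factors that cells induce soon after a stimulus, had 26 of 27 higher by sign, 2 at an unadjusted p under 0.05, and a median of 0.31. fosaa had medians of 5.1 TPM in 3TG libraries and 2.65 TPM in 2TG libraries and a difference of 0.65 (SE 0.239), and egr1 had 0.58 (SE 0.28). The list median was 0.16 without the lin28a line and 0.20 without lin28a 3TG replicate 2. Acute inflammation genes, a list that shares junba and junbb with the last, had 25 of 27 higher, 1 at that level. Their median was 0.49, or 0.20 without the lin28a line and 0.25 without lin28a 3TG replicate 2. Line by line, this median was highest for lin28a (1.55), followed by tardbp (0.55), and was negative for sox9b (−0.08) and smn1 (−0.16). Of the 27 genes 0 lay higher in all 4 lines. cebpd, an acute phase transcription factor, ran at 52 to 622 TPM in 3TG libraries (median 108), against 39.7 to 373 TPM in 2TG libraries (median 72.6), a difference of 0.75 (SE 0.365). The 24 macrophage and neutrophil markers summed to between 1464 and 2277 TPM in 3TG libraries, against 1451 to 2145 TPM in 2TG libraries, with 19 higher and mpx, the neutrophil peroxidase, at 0.40 (SE 0.182). Their part in the inflammation values was not tested.

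Organ lists took different values in different lines. Exocrine pancreas genes, which encode digestive enzymes, had 23 of 24 higher by sign, none at an unadjusted p under 0.05 in limma, and a median of 0.73, which was 0.00 without the tardbp line, 0.38 without the smn1 line and 1.57 without lin28a. Leaving out single libraries gave 0.31 without tardbp 2TG replicate 1, 0.44 without tardbp 3TG replicate 2 and 1.1 without lin28a 3TG replicate 2. The list median was 1.57 in the smn1 line, 3.19 in the tardbp line, −1.66 in the lin28a line and −0.09 in the sox9b line, and the summed level overlapped widely, at 712 to 29998 TPM in 3TG libraries and 217 to 23544 TPM in 2TG libraries. The elastase gene ela2 had 1.32 (SE 1.01), an error nearly as large as the difference.

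Intestine genes had 35 of 40 higher, 1 at an unadjusted p under 0.05, the water channel gene aqp8a.1 having 0.49 (SE 0.204). The list median was 0.41, 0.12 without the tardbp line, 0.17 without the smn1 line, 0.75 without lin28a and 0.22 without tardbp 2TG replicate 1. Photoreceptor genes had 37 of 45 higher, 5 at that level, and a median of 0.21, with 0.66 in the smn1 line, 0.62 in the tardbp line, −0.33 in the lin28a line and −0.02 in the sox9b line. It was 0.07 without the tardbp line, 0.09 without the smn1 line, 0.40 without lin28a, 0.03 without tardbp 2TG replicate 1 and 0.35 without lin28a 3TG replicate 2. Among them the visual cycle gene rlbp1b had 0.75 (SE 0.242), rbp4l 0.68 (SE 0.237), the cone phosphodiesterase gene pde6c 0.68 (SE 0.321) and pde6ha 0.90 (SE 0.575).

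Stress lists were read next, since all embryos had been heated. Heat shock genes had 17 of 38 higher and 21 lower, 2 of the lower ones at an unadjusted p under 0.05, and a median of −0.08, which was 0.13 without the smn1 line. Leaving out single libraries gave values between −0.17 and 0.02, positive without smn1 3TG replicate 1, smn1 3TG replicate 3 or smn1 2TG replicate 1. hsp70l, whose promoter drives QFvpr, ran at 7.3 to 1154 TPM in 3TG libraries (median 32.5), against 4.63 to 478 TPM in 2TG libraries (median 29.6), and its pooled difference was −0.07 (SE 0.868), which was 1.31 without the smn1 line. Within lines it was −4.18 in smn1, without overlap, 1.66 in tardbp, 2.79 in lin28a and −0.54 in sox9b. Among other chaperone genes hspb1 had −0.52 (SE 0.222), hspa4b −0.22 (SE 0.0947) and the constitutive hspa8 0.14 (SE 0.0876).

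Unfolded protein and integrated stress genes had 21 of 33 lower by sign and a median of −0.11, which was −0.04 without the smn1 line, −0.24 without lin28a and −0.04 without smn1 3TG replicate 3, with sel1l of endoplasmic reticulum degradation at −0.26 (SE 0.122) and chac1 at 0.53 (SE 0.26). Of the 16 interferon and RNA sensing genes 8 lay higher and 8 lower, none at an unadjusted p under 0.05 in limma, with ifih1, a sensor of double-stranded RNA, at −0.21 (SE 0.14).

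Cytosolic ribosomal protein genes had 75 of 79 higher by sign, none at an unadjusted p under 0.05 in limma, and a median of 0.08, which was −0.02 with TPM as deposited. rpl34 had 0.13 (SE 0.0735). Skeletal muscle genes had a median of 0.06 and neuron genes −0.01, and both medians turned sign under another scaling.

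With library weights, which favour the sox9b line, the medians lay nearer to 0 in several lists. They were −0.11 for proteasome genes, −0.16 for the SMN complex and Sm core, −0.15 for cell cycle genes, −0.11 for splicing factors, −0.09 for RNA decay genes and −0.10 for globin genes. On the higher side they were 0.18 for clock genes, 0.28 for acute inflammation genes, 0.28 for exocrine pancreas genes and 0.16 for intestine genes.

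**Figure D5:**
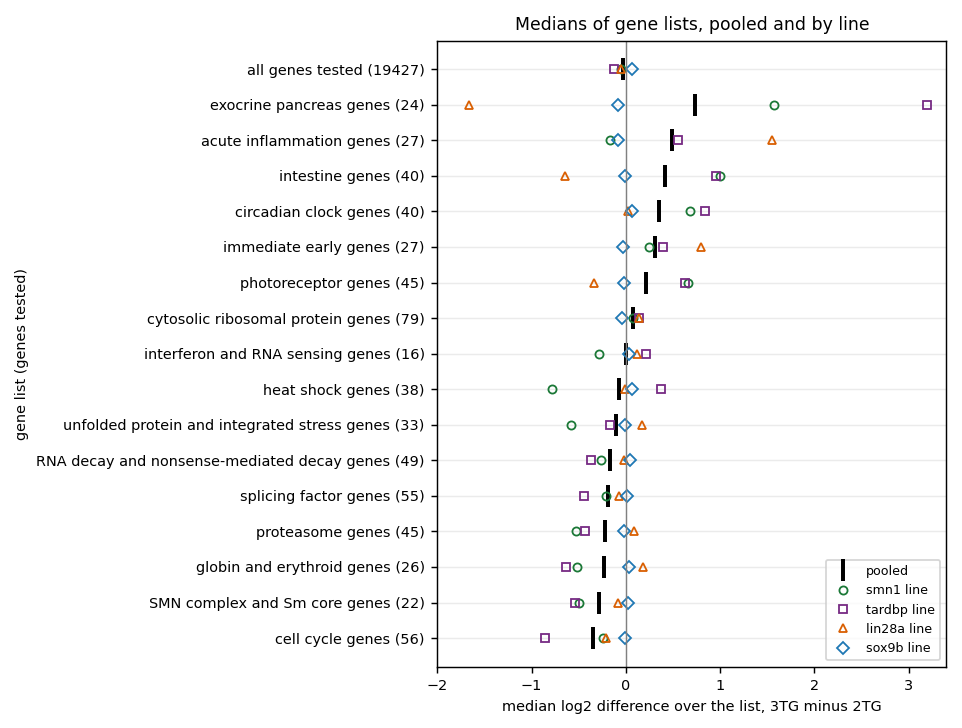
Median log2 difference, 3TG minus 2TG, over all genes tested and over 16 gene lists, pooled (black) and within each line. The smn1 and tardbp medians lie on the same side for proteasome, Sm core, clock and intestine genes, and those of exocrine pancreas genes span −1.66 in lin28a and 3.19 in tardbp.

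Whether the guide's effect differed between lines was tested with the line-by-genotype terms. No gene passed (limma F test, 0 of 19427, or 0%), the smallest adjusted p was 0.674, and 1276 genes (6.57%) had an unadjusted p under 0.05. With library weights 1849 genes passed, in a fit where sox9b 2TG replicate 1 took a weight of 59.0. gpr17, a receptor gene of oligodendrocyte precursors in mammals, averaged 4.94 ± 0.66 TPM in smn1 3TG embryos, against 1.51 ± 0.263 TPM in 2TG embryos (SD, n = 3 each). It lay the opposite way in tardbp, with 2.4 ± 0.679 TPM in 3TG embryos against 4.7 ± 1.4 TPM in 2TG embryos, and in lin28a. The groups did not overlap in any of these 3 lines.

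cp, which encodes the copper carrier ceruloplasmin, averaged 35.6 ± 6.91 TPM in smn1 3TG embryos, against 67.3 ± 5.15 TPM in 2TG embryos. In lin28a it averaged 46.1 ± 4.88 TPM in 3TG embryos, against 35.5 ± 1.44 TPM in 2TG embryos (SD, n = 3 each), again without overlap and in the other direction. oafb was at −1.28 in tardbp and 0.62 in sox9b, and acp6, a lipid phosphatase gene, at −1.26 in smn1 and between −0.31 and 0.05 in the other lines.

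The knockdown lines were also contrasted with the activation lines. No gene passed (limma, 0 of 19427, or 0%), with a smallest adjusted p of 0.242, and 3166 genes (16.3%) had an unadjusted p under 0.05, 1083 (5.57%) with a higher and 2083 (10.7%) with a lower 3TG difference in knockdown. With the same library weights 2897 genes passed, and without tardbp 3TG replicate 3 there were 5. wars1, the tryptophanyl-tRNA synthetase gene, stood at 4.72, 5.36 and 3.4 TPM in smn1 3TG embryos, against 9.31, 10 and 11.9 TPM in 2TG embryos, and at 4.75, 2.8 and 3.87 TPM in tardbp 3TG embryos, against 10.1, 8.67 and 10.3 TPM in 2TG embryos. Neither line had overlap, and the activation lines were at 0.08 and 0.05, so the contrast was −1.18 (SE 0.219). s100t, an S100 calcium-binding protein gene, stood at 81.4, 89.7 and 74.5 TPM in smn1 3TG embryos, against 33.2, 32.4 and 51 TPM in 2TG embryos, without overlap. It was at 0.73 in tardbp, −0.10 in lin28a and −0.28 in sox9b, a contrast of 1.1 (SE 0.213).

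The other genes named for this contrast were, on the lower side, the nuclear receptor gene nr2f6a (−0.92), the palmitoyltransferase gene zdhhc20b (−0.99), vkorc1 of the vitamin K cycle (−0.98), mbd3a (−0.72) and the sulfotransferase gene chst14 (−0.96). On the higher side they were the integrin gene itgae.1 (1.65), gcnt7 (1.45), the acyl-CoA thioesterase gene ACOT12 (1.52), tatdn1 (1.54) and endou (2.21). Each of these, wars1 and s100t included, passed with library weights, and s100t, vkorc1 and itgae.1 passed without tardbp 3TG replicate 3. By list, 26 of 45 proteasome genes and 20 of 49 RNA decay genes were on the lower side at an unadjusted p under 0.05, against 10.7% of all genes. On the higher side at that level were 27 of 40 intestine genes, 19 of 24 exocrine pancreas genes and 18 of 45 photoreceptor genes, against 5.57% of all genes.

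Within-line differences of the 19427 genes were set side by side between lines, which share no libraries, as a description across genes that are not independent. Pearson's r was 0.51 between smn1 and tardbp and −0.03 between lin28a and sox9b. It was −0.29 between smn1 and lin28a, −0.22 between tardbp and lin28a, 0.06 between smn1 and sox9b and −0.03 between tardbp and sox9b.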

How the data were processed

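RNA of whole zebrafish embryos was sequenced in 24 libraries. The authors deposited TPM per gene, with a separate file for every line as the file headers show, and the submitters' processing notes name Trimmomatic 0.39, STAR 2.7.10b, Salmon 1.10.1, GRCz11 and danRer11. Tables were joined by gene identifier, since 684 entries repeat a symbol. Columns without a sample name, 13 in all, were left aside. Values have 6 decimals in 10 libraries and 6 significant digits in 14. All sox9b libraries have 6 decimals and all lin28a libraries 6 significant digits. In smn1, 3TG replicate 1 and 2TG replicates 1 and 2 have 6 decimals, and in tardbp 2TG replicate 2 alone. Number format and line are therefore largely bound together.

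The log2(TPM + 1) values were fitted in limma 3.58.1 (R 4.3.3), with a variance prior that follows abundance, two-sided tests, Benjamini-Hochberg adjustment over the 19427 genes and a threshold of 0.05. Line was the block of the pooled fit, and the other contrasts came from a fit of 8 groups. Exact permutation p-values exchange genotypes within lines over 160000 arrangements. Differences on this scale understate those of low genes. The 2 most alike libraries correlated at 0.986. The code was tested on simulated data.

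Named genes are the targets with lin28b and sox9a, the 12 genes of smallest p in each direction of the pooled fit (clone names left out), those of smallest p between lines, and 6 in each direction for knockdown minus activation. The members and the 42 lists were chosen with earlier results of these data known. List examples, nelfe, primpol and hsp70l were picked with values in view. Alternatives were other scalings, pseudocounts, filters, priors, thresholds, library weights, a replicate block, a number format covariate, and leaving out libraries or lines. Fits within a number format and the permutation test of each gene were added after seeing the data. Coordinates, sequences, 2 genes and 1 of the lists are not reported here.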

Additional observations from a re-analysis of the deposited data

Results flagged for a closer look

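The 26 glia and myelin genes lay in opposite directions in 2 lines. Their mean log2 level was higher by 0.47 in smn1 3TG libraries than in 2TG libraries, and in the lin28a line the 3TG minus 2TG difference was −0.20, with no overlap of the groups in either line. The pooled median of the list was 0.12, which was 0.07 without tardbp 2TG replicate 1, 0.004 without the smn1 line and 0.24 without lin28a. This difference between lines was not tested for the list.

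The list of targets and paralogs likewise lay apart in opposite directions, at −0.60 in the tardbp line and at 0.52 in the lin28a line. In the tardbp line the targeted tardbp and tardbpl were at −0.50 and −0.54, so the list value did not come from them alone. In the lin28a line lin28a itself was at 1.59 and the list median at 0.42. This difference was not tested for the list.

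zgc:158463, FO704772.3 and AL935186.10, which were left out of the totals, held 44.0% of the deposited TPM sum in 1 library, tardbp 3TG replicate 3. They held between 0.110% and 1.31% in every other library of either genotype, and the 1.31% was in sox9b 2TG replicate 2. The deposited TPM of tardbp 3TG replicate 3 sum to 778190, against 983631 to 990345 in the other 23 libraries.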

How the results depend on the processing

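The pooled comparison called 0 genes in limma under each alternative but the number format covariate, which gave 1 gene, CT025887.2 (adjusted p = 0.0179). The difference between lines called 1849 genes with library weights, 1 without the tardbp line (hist1h4l) and 8 within the smn1 and sox9b libraries of 6 decimals, where smn1 3TG is 1 library assumed to vary like the other groups, and 0 when single libraries were left out. Knockdown minus activation called 2897 genes with library weights and 0 to 5 when single libraries were left out, the 5 being without tardbp 3TG replicate 3. In the fit of 8 groups weights reached 59.0 in 1 library, sox9b 2TG replicate 1, while the other sox9b libraries had 0.396 to 3.58. The highest weights of the other lines were 5.96 in lin28a, 2.30 in tardbp and 1.63 in smn1. The pooled fit had weights of its own, which reached 3.44 in sox9b 3TG replicate 3. Of the weight estimates 1 stopped before its tolerance. sox9b in its own line against the others was 1.18 with weights (adjusted p = 0.00383). With single libraries left out these contrasts ran between −0.90 and −0.71 for smn1, −0.58 and −0.30 for tardbp, −0.68 and −0.40 for tardbpl, 1.65 and 2.33 for lin28a and 0.78 and 1.02 for sox9b.

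Of 3739 values of named genes under alternatives 37 changed sign. Pooled lin28a was −0.041 with TPM as deposited, −0.036 with a pseudocount of 5, −0.074 with weights, −0.49 without its line and between −0.14 and 0.21 with single libraries left out. Pooled hsp70l was 0.054 with the number format covariate, 1.31 without the smn1 line, 0.092 without sox9b, 1.28 within 6 significant digits and between −0.63 and 0.23 with single libraries left out. smn1 was 0.070 without its line, and sox9a −0.11 without lin28a. Further sign changes came within the smn1 and sox9b libraries of 6 decimals, again with 1 smn1 3TG library. There tardbp was 0.054, tardbpl 0.067, cebpd −0.049, mpx −0.025, ela2 −0.068, pcna 0.034, hbae3 0.10 and rpl34 −0.029. The medians of cell cycle genes (0.08) and splicing factors (0.02) were positive there. This subset leaves out the tardbp and lin28a lines, so number format and line cannot be told apart in it. The cause was not tested. Without tardbp 2TG replicate 1 ela2 was 0.62, aqp8a.1 0.32, pde6c 0.42, pde6ha 0.51 and hbae3 −0.18. Without lin28a 3TG replicate 2 mpx was 0.24 and pcna −0.20, without smn1 3TG replicate 1 pooled smn1 was −0.079 and sox9b 0.17, and hspa8 was 0.089 without tardbp 2TG replicate 3. Pooled sox9a ran between 0.01 and 0.18 with single libraries left out.

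At an unadjusted p under 0.05 the pooled fit listed 1378 genes with the number format covariate, against 2014 without it. Knockdown minus activation listed 2508 with that covariate, against 3166. The line difference listed 2571 with TPM as deposited, 6350 with weights, 2346 without tardbp 3TG replicate 3 and 2232 without lin28a 3TG replicate 1. Same-numbered 3TG and 2TG replicates deviated together (r over 0.1) in 5 of 12 pairs, with r between −0.34 and 0.37. Deviations from the mean of a small group are bound to each other, so this check cannot decide whether the numbers pair the samples. With a replicate block the pooled fit called 0 genes and listed 1978. Unknown depth limits what can be said of genes near 1 TPM.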

Other observations

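A further 16 lists, with 409 genes tested, had pooled medians between −0.16 and 0.09, with 9 members (2.2%) higher and 7 (1.71%) lower in 3TG at an unadjusted limma p under 0.05, against 2.19% of all genes higher and 8.18% lower. Pituitary and hypothalamic hormone genes had a median of 0.29, with 16 of 21 higher by sign and line medians of 0.43 in the smn1 line, 0.61 in the tardbp line, −0.39 in the lin28a line and 0.01 in the sox9b line. That median was 0.14 without tardbp 2TG replicate 1, 0.17 without smn1 3TG replicate 3, 0.18 without smn1 2TG replicate 1 and 0.19 without smn1 2TG replicate 3. It was 0.10 without the tardbp line, 0.18 without smn1, 0.47 without lin28a and −0.02 within the smn1 and sox9b libraries of 6 decimals. smyhc1, a slow muscle myosin gene, ran at 317 to 491 TPM in 3TG libraries (median 372), against 269 to 414 TPM in 2TG libraries (median 327), a pooled difference of 0.17 (SE 0.0783) that was positive in each line while the groups overlapped. Of the 71 skeletal muscle genes tested, 1 (1.41%) was higher in 3TG at an unadjusted limma p under 0.05, against 2.19% of all genes.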
